A study of Homo sapiens with 4 samples.

Results

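The 10 genes described here mark the passage of cells between an epithelial and a mesenchymal state. They were taken by gene symbol (CDH1, CDH2, EPCAM, CLDN6, CLDN7, SNAI1, SNAI2, VIM, KRT8 and KRT18), and all 10 were found among the 17630 genes analysed. Messenger RNA was sequenced from 4 populations of the human embryonic stem cell line H1, with 1 library each. The first, hESC, was the undifferentiated line. The MES library came from APLNR+ cells collected by flow cytometry on day 2, after activin A at 40 ng/ml and BMP4 at 50 ng/ml. The HEP library came from CD31+CD34+ cells collected the same way on day 4, after a further 2 days in VEGF at 40 ng/ml and bFGF at 50 ng/ml. The HPC library came from CD31+CD43+ cells collected on day 7, after 3 more days in these 2 factors with SB-431542. That compound blocks the activin and NODAL receptors, among others. All 4 populations descend from 1 cell line, no sort is stated for hESC, and no group has a second library, so no value below has a replicate error and no test across samples was possible.

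Epithelial cells are held together by adherens junctions, built on the cadherin CDH1, and sealed by tight junctions, built on claudins. Their intermediate filaments are keratins, which assemble only as pairs of 1 type I and 1 type II protein, such as KRT18 with KRT8. At gastrulation cells of the epiblast, to which human embryonic stem cells are likened, leave the epithelium through the primitive streak to form mesoderm. CDH1 is then exchanged for CDH2, vimentin filaments are laid down, and the zinc finger repressors SNAI1 and SNAI2 bind E-box sequences in the promoters of junction genes.

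The E-box that SNAI proteins bind reads CAGGTG on one strand and CACCTG on the other. It was looked for, on both strands, in the 250 bases before each start in the RefSeq promoter table (build GRCh38.p14), which held 7 entries for 5 of the genes: VIM, KRT8, CLDN6, CLDN7 and CDH2. It held no entry for CDH1, EPCAM, KRT18, SNAI1 or SNAI2, so the promoters of these genes were not searched. Of the 7 windows 1 held a match, that before the downstream start of CLDN7, with 4 matches at 174, 135, 20 and 9 bases before the start. Among all 35116 windows of the same length 17.5% held at least 1 match and 0.122% at least 4. These shares were not matched for GC content, which was 71.2% in the CLDN7 window. The 3 stretches of 30 bases that hold the matches are shown because no other window of the 5 genes searched held one. They lie on the minus strand and read 5′ to 3′, with the matches in capitals.

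CLDN7, chr17:7262635-7262664: tttcttcctcctCACCTGggcaaggagggg

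CLDN7, chr17:7262596-7262625: cgacttccggttCAGGTGagtgtcccttcg

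CLDN7, chr17:7262479-7262508: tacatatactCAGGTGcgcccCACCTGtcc

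In GENCODE 29 this window overlaps an annotated CLDN7 exon. The 250 bases before the upstream CLDN7 start, which overlap no exon, held no match and are shown for contrast.

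CLDN7, chr17:7263214-7263463: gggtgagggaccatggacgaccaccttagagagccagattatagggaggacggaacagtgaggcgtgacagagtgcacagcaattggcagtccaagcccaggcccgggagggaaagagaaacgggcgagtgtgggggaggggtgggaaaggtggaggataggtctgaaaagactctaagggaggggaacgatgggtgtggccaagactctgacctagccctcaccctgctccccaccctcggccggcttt

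A match is a run of letters and not a site at which binding was measured, and the tables give 1 value per gene, not per start.

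The sort antigens were read as a check of the labels. APLNR stood at 0.57 (hESC), 344 (MES), 250 (HEP) and 15.6 (HPC); CD34 at 0.13, 1.35, 43.6 and 18.4; SPN, the gene of CD43, at 0.11, 0.08, 0.97 and 24.4. PECAM1, the gene of CD31, was at 0.01, 0.01, 1.83 and 7.49, and so was low in HEP although these cells were sorted for it. Values are the normalised expression signal per gene as deposited, which differed in sum between libraries (306724 in HEP to 426980 in hESC). The sequencing depth behind them is unknown.

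The 4 junction and adhesion genes were highest in hESC and lowest in HPC. CDH1, which joins neighbouring epithelial cells through calcium-dependent contacts, stood at 31.5 (hESC), 12.5 (MES), 2.76 (HEP) and 1.13 (HPC). EPCAM, a surface glycoprotein of epithelia and pluripotent cells, stood at 46.3, 13.1, 5.44 and 1.36 in the same order. The order of the 4 libraries was the same for both, and HPC held 3.59% of the hESC level of CDH1 and 2.94% of that of EPCAM.

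CLDN6, a tight junction claudin of early embryonic epithelia, was the most abundant of the 4 in hESC, MES and HEP, with 127 (hESC), 43.5 (MES), 22.8 (HEP) and 4.23 (HPC). CLDN7, a claudin of many epithelia, stood at 44.6, 10.7, 12.9 and 7.78. Its course differed from that of the other 3: most of the difference lay between hESC and MES, MES and HEP were within 2-fold of each other, and HPC kept 17.4% of the hESC level, against 3.33% for CLDN6. CLDN6 thus stood 2.84 times above CLDN7 in hESC and 4.09 times above it in MES, and in HPC the order was the other way, with CLDN7 at 1.84 times CLDN6.

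The keratins did not follow the junction genes. KRT8, the type II keratin of simple epithelia, stood at 218 (hESC), 666 (MES), 673 (HEP) and 46.7 (HPC). KRT18, its type I partner, stood at 332, 457, 515 and 129. Both were highest in MES and HEP, which did not differ by 2-fold for either gene, and both were lowest in HPC. KRT8 ranked 277th of all genes in hESC, 119th in MES, 91st in HEP and 895th in HPC. The ratio of KRT8 to KRT18 was 0.657 (hESC), 1.46 (MES), 1.31 (HEP) and 0.362 (HPC), so the RNAs of the pair did not keep 1 proportion. GENCODE 29 lists 50 pseudogenes named after KRT8 and 67 named after KRT18, and exons of the 2 genes overlap on opposite strands, so reads shared with copies leave their absolute levels uncertain. Markers of other cell types were read as well. Each sum given here was lower in HEP than in MES, whereas KRT8 and KRT18 were not. The 12 trophoblast and amnion markers summed to 5.02 (hESC), 80.9 (MES), 42.6 (HEP) and 12.1 (HPC), with ELF5 and CGA at 0 in all 4 libraries and KRT7 at 4.06, 0.96, 0.51 and 0.19. The 10 definitive endoderm markers summed to 11.9, 2823, 61.2 and 21.5, of which CER1 alone gave 2761 in MES, with FOXA2 at 0.01, 0.23, 0.65 and 0.18. At 5 or more were 3 of the 12 trophoblast and amnion markers in MES and 2 in HEP, and 5 of the 10 endoderm markers in MES and 3 in HEP. The 10 surface and neural ectoderm markers summed to 14.3, 25.7, 2.80 and 0.19. What part, if any, such cells had in the keratin values was not tested. In sorted bulk samples fewer cells of a type and less RNA per cell cannot be told apart.

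Of the mesenchymal pair, CDH2, which takes the place of CDH1 in migrating mesoderm, stood at 7.88 (hESC), 47.8 (MES), 12.02 (HEP) and 3.69 (HPC). It peaked in MES alone, and HPC and hESC were within 2-fold of each other on the log2(value + 1) scale. VIM, the intermediate filament of mesenchymal, endothelial and blood cells, stood at 34.2, 345, 645 and 176. It was highest in HEP and stayed above the hESC level in each sorted population. The ratio of CDH2 to CDH1 was 0.250 (hESC), 3.82 (MES), 4.36 (HEP) and 3.27 (HPC), so CDH2 exceeded CDH1 in MES, HEP and HPC and not in hESC. The ratio of VIM to KRT8 was 0.157 (hESC), 0.518 (MES), 0.958 (HEP) and 3.77 (HPC): vimentin exceeded KRT8 in HPC alone, where both were lower than in HEP. Ratios between genes take the values to be per transcript length, as FPKM and TPM are, although the measure is not stated.

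The 2 repressors were low outside MES. SNAI1 stood at 0.38 (hESC), 8.06 (MES), 1.84 (HEP) and 0.71 (HPC), and SNAI2 at 0.15, 10.2, 1.21 and 0.77. HEP held 22.8% of the MES level of SNAI1 and 11.9% of that of SNAI2, and the ratio of HEP to MES was 0.221 for CDH1. On the log2(value + 1) scale the 2 courses were the most alike of any pair of the 10 genes. Their profiles, each centred on its own mean over the 4 libraries, differed by 0.26 (root mean square). EPCAM with CLDN6 (0.27) and CDH1 with EPCAM (0.29) followed. The least alike were EPCAM and VIM (2.81). Adding 1 narrows differences of genes as low as SNAI1 and SNAI2 outside MES, so the rank of this pair may depend on it. Between MES and hESC SNAI1 differed by 2.71 and SNAI2 by 3.28 with 1 added. With 0.1 added they differed by 4.09 and 5.36.

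**Figure D1:**
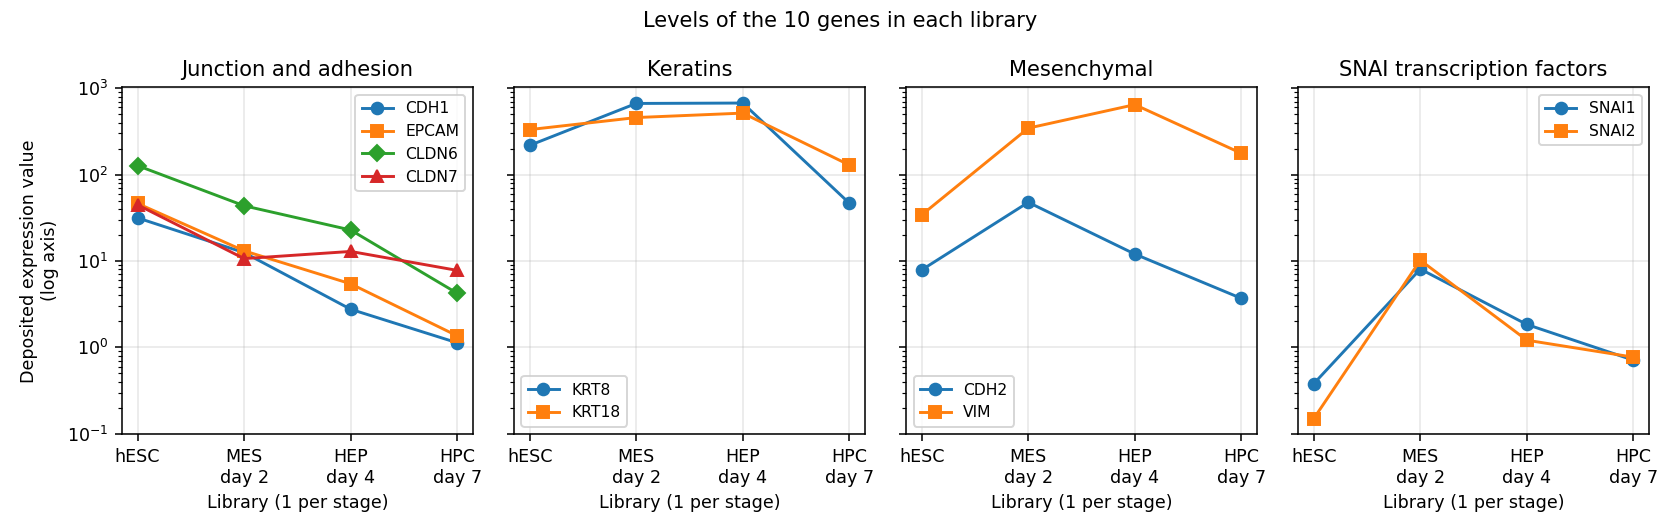
Deposited expression value (log axis) of the 10 genes in the 4 libraries, 1 library per stage, in panels by role. The 4 junction genes are highest in hESC, the keratins in MES and HEP, VIM in HEP, and CDH2, SNAI1 and SNAI2 in MES.

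Libraries were compared by subtracting log2(value + 1), which makes differences of low genes look smaller. A gene was called higher or lower where the absolute difference reached 1 and the larger of its values reached 5, and shares over all genes are of those at 5 or more in either library. The libraries also differ by a trend with the GC content of transcripts, strongest between MES and HEP, so calls of the 10 genes, and counts and named genes of the lists, are also given with that trend removed where this changes them.

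Between MES and hESC, the step under activin A and BMP4, 9 of the 10 genes were called. Higher in MES were 5: VIM (3.30), SNAI2 (3.28), SNAI1 (2.71), CDH2 (2.46) and KRT8 (1.61). Lower in MES were the 4 junction genes: CLDN7 (-1.97), EPCAM (-1.75), CLDN6 (-1.52) and CDH1 (-1.27). KRT18 differed by 0.46. Over all 7458 genes 8.97% were called higher and 8.76% lower. VIM came 105th and SNAI2 106th among the 669 higher genes, and CLDN7 128th among the 653 lower ones. With the GC trend removed the same 9 calls were made, with SNAI2 at 2.87. The 9 markers of pluripotent cells summed to 1110 in MES and 3167 in hESC, and 7 of them were still at 5 or more in MES. Whether remaining pluripotent cells contribute to the junction gene values in MES was not tested.

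Between HEP and MES, the step under VEGF and bFGF, no gene was called higher and 5 were called lower: SNAI2 (-2.34), CDH2 (-1.90), CDH1 (-1.84), SNAI1 (-1.67) and EPCAM (-1.13). VIM (0.90) and CLDN6 (-0.90) lay just inside the limit, and CLDN7 (0.25), KRT18 (0.17) and KRT8 (0.02) differed little. Over all 7225 genes 8.08% were called higher and 33.9% lower, so the share of lower calls among the 10 genes was not far from that of all genes. With the GC trend removed 12.8% of all genes were lower and 4 of the 10: SNAI1 (-1.90), CDH1 (-1.43), SNAI2 (-1.26) and CLDN6 (-1.18). CDH2 (-0.99) and EPCAM (-0.45) were no longer called. Genes whose GC content is within 2 points of that of SNAI2 (42.5%) had a median difference of -1.51 between these libraries, and those near SNAI1 (58.2%) one of 0.30. The calls of SNAI1, SNAI2 and CDH1 were also made under each of the 5 scalings of the libraries, GC removal included.

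Between HPC and HEP, the step under VEGF, bFGF and SB-431542, 6 genes were called lower and none higher. KRT8 (-3.82) had the 12th largest of the 630 lower differences, followed by CLDN6 (-2.19), KRT18 (-1.99), VIM (-1.87), CDH2 (-1.47) and EPCAM (-1.45). CDH1 (-0.82), SNAI1 (-0.73) and SNAI2 (-0.32) were under 5 in both libraries and could not be called, and CLDN7 differed by -0.66. Over all 5894 genes 8.99% were called higher and 10.7% lower. The 6 calls were also made with the GC trend removed, from -1.60 for VIM to -3.63 for KRT8. Thus epithelial genes (CLDN6, EPCAM, KRT8, KRT18) and mesenchymal genes (CDH2, VIM) were lower together at this step. Alongside, the 13 blood markers summed to 1586 in HPC and 79.3 in HEP, and the 14 endothelial markers to 346 in HPC and 814 in HEP.

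Between HPC and hESC, the ends of the series, 6 genes were called lower: CLDN6 (-4.61), EPCAM (-4.32), CDH1 (-3.93), CLDN7 (-2.38), KRT8 (-2.20) and KRT18 (-1.35). VIM alone was called higher (2.33), and CDH2 (-0.92), SNAI2 (0.62) and SNAI1 (0.31) were not called. Over all 7437 genes 11.1% were called higher and 37.4% lower, and with the GC trend removed 16.2% and 17.0%. CLDN6 came 29th, EPCAM 41st and CDH1 72nd among the 2778 lower genes. The KRT18 call depended on the scaling. It was not made with median-of-ratios scaling, upper quartile scaling, or a common total without mitochondrial, ribosomal protein, globin and histone genes. Nor was it made with a fold of 4. Median-of-ratios scaling raised HPC by 0.62, HEP by 0.64 and MES by 0.07 (log2) relative to hESC. This comparison shares its libraries with the others.

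**Figure D2:**
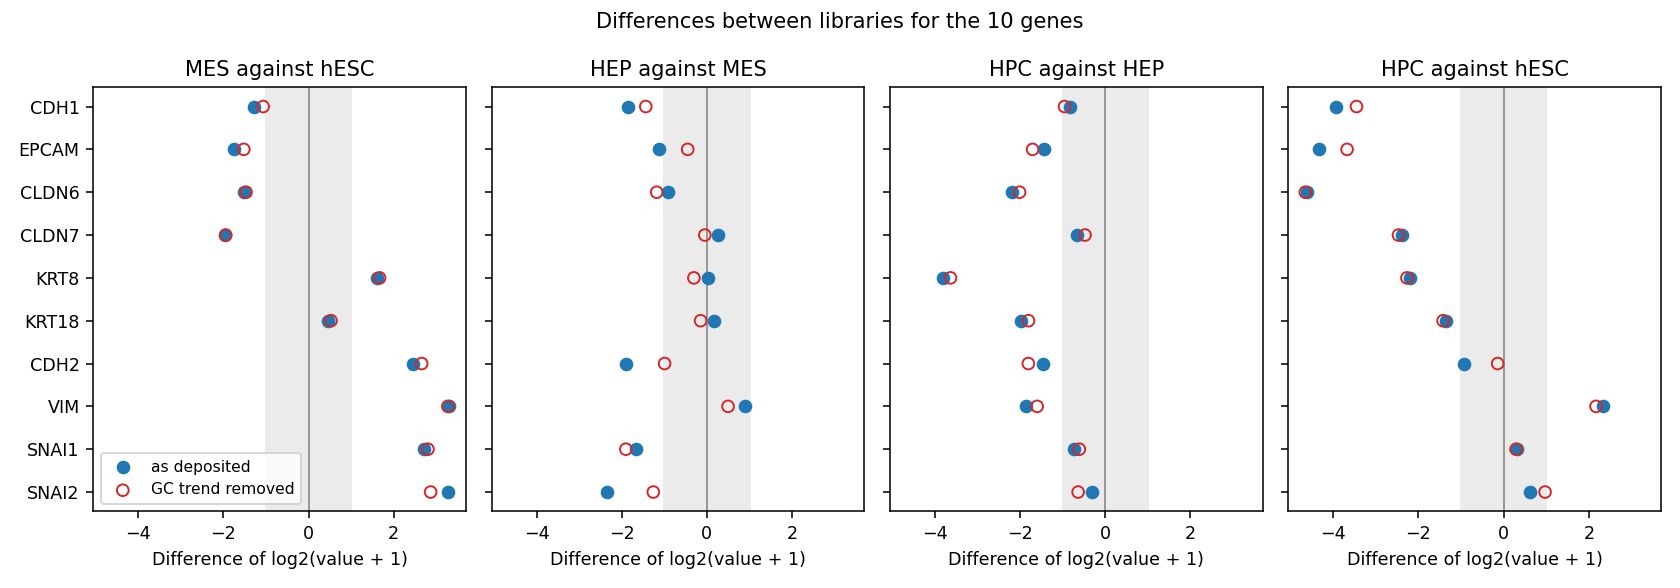
Difference of log2(value + 1) for the 10 genes in 4 comparisons of 1 library with 1 library, as deposited (filled) and with the GC trend removed (open); the grey band spans differences under 1 in size. The junction genes lie left and CDH2, VIM, SNAI1 and SNAI2 right of the band in MES against hESC, and 6 genes lie left of it in HPC against HEP.

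Relatives of the 10 genes were read from the same families. Of 20 other cadherins 3 reached 20 in any library. CDH3, the placental cadherin, stood at 60.2 (hESC), 22.0 (MES), 12.3 (HEP) and 2.74 (HPC), in the same order of libraries as CDH1 and above it in each. CDH5, the cadherin of endothelial junctions, stood at 0.33, 0.14, 73.5 and 25.1, and CDH11, a cadherin of mesenchyme, at 1.07, 20.4, 31.3 and 8.93. CDH5 was 26.6 times CDH1 and 6.12 times CDH2 in HEP. The most abundant of these cadherins was therefore CDH3 in hESC, CDH2 in MES, and CDH5 in HEP and HPC.

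Of the 14 other claudins in the tables none reached 20, and those named here were chosen after their values were seen. CLDN4, of epithelial tight junctions, was the highest of them in hESC (12.2) and HEP (4.98), CLDN11 in MES (10.2, against 0.96 in hESC), and CLDN5, the endothelial claudin, in HPC (5.23, against 1.57 in HEP). CLDN6 exceeded all of these in hESC, MES and HEP. In HPC CLDN7 (7.78) and CLDN5 (5.23) were above it (4.23). HEP, sorted for CD31 and CD34, thus held 14.5 times as much CLDN6 as CLDN5 RNA.

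Of 17 other keratins, 1 reached 20. KRT19, a type I keratin that also pairs with KRT8, stood at 115 (hESC), 309 (MES), 176 (HEP) and 27.7 (HPC). It was called higher in MES than in hESC (1.42) and lower in HPC than in HEP (-2.63), as KRT8 was. Of keratins of stratified epithelia, looked at after their values were seen, KRT5 and KRT14 were at 0.03 or less in every library, and KRT16 stood at 0.03 (hESC), 4.72 (MES), 0.36 (HEP) and 0.12 (HPC), under the minimum of 5. With the GC trend removed 2 of the 17 keratins, not 1, were called higher in MES than in hESC, where 10.7% of all genes were. In HEP 2, not 0, were then lower than in MES, where 12.8% of all genes were. Only 4 of the 17 were at 1 or more in any library, and as deposited 1 reached 5. Counts out of 17 are thus on another basis than the shares of all genes, which are over genes at 5 or more. Of the other intermediate filament genes, LMNA, which encodes lamins A and C of the nuclear envelope, peaked in HEP as VIM did, at 26.0 (hESC), 65.7 (MES), 194 (HEP) and 73.6 (HPC). NES, a filament gene of progenitor cells, was lower in HPC than in HEP (11.7 and 61.5). LMNB1 stood at 104 (hESC), 159 (MES), 31.0 (HEP) and 29.2 (HPC), and LMNB2 at 91.1, 103, 69.3 and 43.1.

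**Figure D3:**
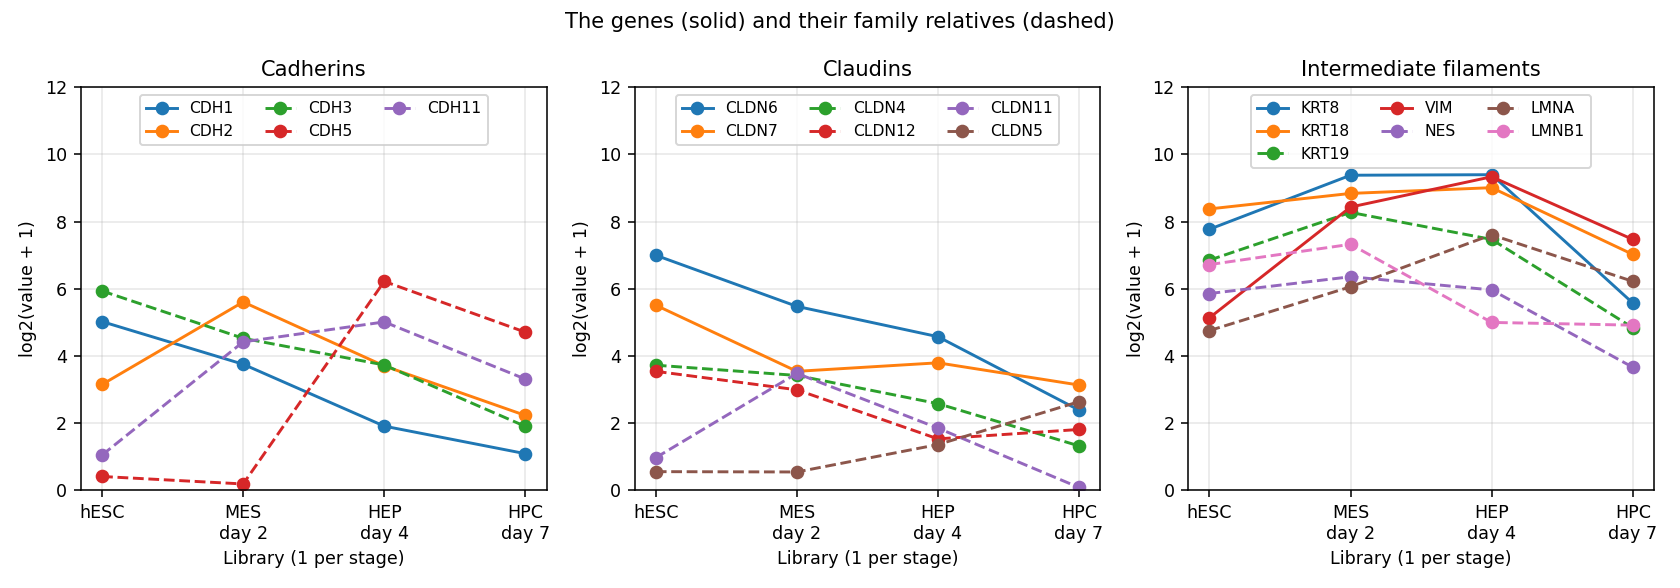
log2(value + 1) of the genes (solid lines) and of family relatives (dashed lines) in the 4 libraries, 1 per stage. Among cadherins the highest line passes over to CDH2 in MES and to CDH5 in HEP. KRT19 follows KRT8, and CLDN5 has its own highest value in HPC, where it lies below CLDN7.

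Other genes of both states were counted from 4 lists. Counts of calls are over list genes at 5 or more in either library, the same basis as the shares of all genes, and medians are over list genes at 1 or more in any library. Over all 12075 genes at that level the medians were -0.12 for MES against hESC, -0.40 for HEP against MES, 0.07 for HPC against HEP and -0.44 for HPC against hESC.

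Of 26 epithelial junction and polarity genes 6 were lower and none higher in MES than in hESC, where 8.76% of all genes were lower (median -0.41; 6 lower and 1 higher with the GC trend removed). The largest differences were those of MARVELD3, of tight junctions (1.11 in MES and 7.61 in hESC), CLDN10 (1.35 and 7.20), CDH3 (22.0 and 60.2) and PVRL1, a nectin (3.62 and 11.3); CLDN10 was not called with the GC trend removed. In HEP 8 of 21 were lower than in MES and none higher, a share near the 33.9% of all genes (median -0.80). With the GC trend removed 5 were lower, where 12.8% of all genes were. CXADR, a tight junction receptor (2.42 in HEP and 15.7 in MES), was among these 5, whereas the desmosomal cadherins DSG2 (4.59 and 21.3) and DSC2 (3.63 and 14.6) and the polarity gene PARD6B (1.04 and 5.70) were not. In HPC 4 of 11 were lower than in HEP and none higher, where 10.7% of all genes were lower (median -0.55; 5 lower with the GC trend removed): CDH3 (2.74 and 12.3), JUP, a catenin of desmosomes (14.7 and 41.3), DSP, a desmosomal plaque protein (2.69 and 7.46), and PVRL1 (2.00 and 5.30), the last not with the trend removed. In HPC 20 of 26 were lower than in hESC and none higher, where 37.4% of all genes were lower (median -1.82). With the GC trend removed 14 were lower (median -1.30), where 17.0% of all genes were, and 13 with a fold of 4 and 3 with a minimum of 20 in place of 5. The largest of these differences were those of CXADR (0.52 in HPC and 26.3 in hESC), CDH3 (2.74 and 60.2), LSR, of tricellular junctions (0.86 and 12.9), and PPL, of desmosomes (0.19 and 7.77). The highest values of the list were those of the catenins CTNNB1 and CTNNA1, which link cadherins to actin. CTNNB1 stood at 217 (hESC), 189 (MES), 159 (HEP) and 115 (HPC), and CTNNA1 at 127, 94.7, 91.3 and 53.4.

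Of 13 regulators, proteases and trafficking genes of epithelia 9 were lower and none higher in MES than in hESC, where 8.76% of all genes were lower (median -0.97; 8 lower with the GC trend removed). CD24, a surface glycoprotein, stood at 85.5 in MES and 694 in hESC, and MAL2, of apical transport, at 1.72 and 19.7. GRHL2, a transcription factor that maintains epithelial junction genes, stood at 1.92 in MES and 9.56 in hESC, and AP1M2, an adaptor of basolateral sorting, at 19.2 and 71.2. In HEP 2 of 6 were lower than in MES, near the share of all genes (33.9%): AP1M2 (4.34 and 19.2) and PRSS8, a membrane protease (8.05 and 26.6). Both were also called with the GC trend removed, where 12.8% of all genes were lower. In HPC 2 of 5 were lower than in HEP, where 10.7% of all genes were: PRSS8 (1.10 and 8.05) and the receptor gene ERBB3 (0.89 and 5.21). In HPC all 13 of 13 were lower than in hESC, also with the GC trend removed, where 37.4% and 17.0% of all genes were lower (median -2.48). The largest differences were those of AP1M2 (1.43 in HPC and 71.2 in hESC), MAL2 (0.09 and 19.7), ESRP1, a splicing regulator of epithelial isoforms (0.53 and 19.8), and PRSS8 (1.10 and 24.4). SPINT2, a protease inhibitor and after CD24 the highest gene of the list, stood at 131 (hESC), 92.7 (MES), 55.7 (HEP) and 48.7 (HPC).

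Of 5 other transcription factors of the transition 3 were higher in MES than in hESC and none lower, where 8.97% of all genes were higher: GSC, of the primitive streak (23.1, listed at 0 in hESC), KLF8 (5.91 and 0.67) and TCF4 (10.8 and 3.64). In HEP 4 of 5 were lower than in MES, where 33.9% of all genes were: GSC (0.22 and 23.1), TCF4 (2.55 and 10.8), KLF8 (1.35 and 5.91) and TCF12 (5.45 and 12.2). With the GC trend removed TCF12 was not called, and 3 of the list were lower and 1 higher, where 12.8% and 9.45% of all genes were. SNAI1 and SNAI2 were lower in HEP than in MES as well. Between HPC and HEP none was called. ZEB2, a repressor that binds the same kind of E-box, stood at 0.03 (hESC), 2.26 (MES), 4.07 (HEP) and 5.42 (HPC), and was called higher in HPC than in hESC. TCF12 (5.88 in HPC and 14.6 in hESC; not with the GC trend removed) and TCF3 (8.25 and 19.5) were lower. ZEB1 was under 1 in every library (0.01, 0.86, 0.40 and 0.41) and TWIST1 reached 1.07, in MES; these 2 were looked at after their values were seen.

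Of 25 genes of mesenchymal matrix, adhesion and cytoskeleton 19 were higher and none lower in MES than in hESC, also with the GC trend removed, where 8.97% of all genes were higher (median 1.72). The collagen gene COL5A1 stood at 178 in MES and 2.28 in hESC, COL5A2 at 436 and 13.8, TNC, of the matrix, at 60.1 and 1.36, and POSTN, also of the matrix, at 27.5 and 0.79. Of 29 in HEP against MES 8 were higher, where 8.08% of all genes were (median -0.18). Lower were 10, a share near the 33.9% of all genes. Once the GC trend was taken out, lower calls came to 9 and higher calls to 8. The shares over all genes were then 12.8% and 9.45%, so lower calls of the list were above their share over all genes. COL3A1 (23.1 in HEP and 1.05 in MES) and S100A4, a calcium-binding protein of motile cells (298 and 32.0), were higher, and POSTN (0.55 and 27.5) and CTGF (1.35 and 19.1) were lower. In HPC 17 of 25 were lower than in HEP and 2 higher, also with the GC trend removed, where 10.7% and 8.99% of all genes were (median -1.21). TAGLN, an actin-binding protein, stood at 12.4 in HPC and 233 in HEP, TNC at 0.64 and 27.1, COL5A2 at 8.92 and 100.4, and fibronectin, FN1, at 90.0 and 545. Of 23 in HPC against hESC 12 were higher, where 11.1% of all genes were, and 6 lower, where 37.4% were (median 0.94). With the GC trend removed the calls were again 12 and 6, where 16.2% and 17.0% of all genes were higher and lower. Lower calls of the list were then no longer below their share over all genes. COL3A1 (41.7 in HPC and 0.45 in hESC), S100A4 (862 and 43.2) and the smooth muscle actin gene ACTA2 (19.2 and 0.72) were higher, and VCAN, of the matrix (2.60 and 52.8), was lower. S100A4 and TAGLN had the highest values of the list, TAGLN with 561 in MES.

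**Figure D4:**
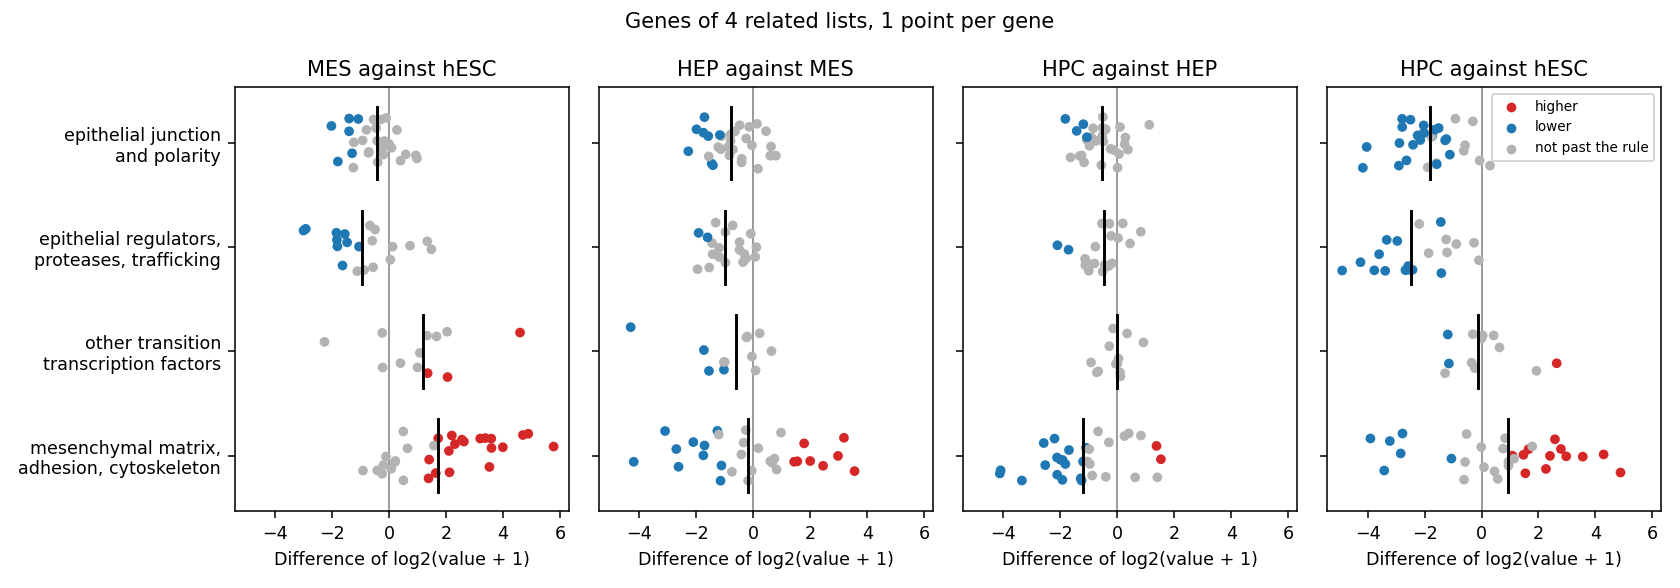
Difference of log2(value + 1) for genes of 4 lists at 1 or more in any library, 1 point per gene, in 4 comparisons; black bars are medians and colours give the calls. Epithelial genes lie mostly left of 0 in MES against hESC and in HPC against hESC, and 19 mesenchymal genes lie right in MES against hESC and 17 left in HPC against HEP.

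Among 3436 other genes at 20 or more in any library, those most like CDH1 in course over the 4 libraries were CSRP2 (143.5, 64.8, 23.7 and 9.47 from hESC to HPC; root mean square difference of the centred log2 profiles 0.21), OCIAD2 (0.22), MLF1 (0.22), PMAIP1 (0.23) and PLS3 (0.23). Those most like VIM were the fibronectin receptor subunit ITGA5 (6.69, 87.2, 154 and 39.7; 0.08), the cadherin CDH11 (0.11), NRP1 (0.19), the matrix protease MMP2 (0.26) and ITGA9 (0.27). With 4 libraries such likeness is a description of these values only.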

How the data were processed

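RNA-seq libraries from 4 populations of H1 cells were analysed, 1 per group, as grouped by the sample titles. The authors deposited 1 normalised expression signal per gene and library. BWA, Bowtie and RSEM were used with hg19, per the submitters' processing notes; their versions and roles, the annotation, the strand setting and the choice of FPKM or TPM are not given. The depth is unknown, so values carry no counting interval. Of 17634 rows per table, 4 that shared a name were left out (28 rows carried a date for a symbol), leaving 17630 genes. Exons of CDH1, CDH2, CLDN6, CLDN7, KRT8, KRT18 and VIM overlap annotated genes on the opposite strand, whose reads cannot be told apart without strand. Exons of CLDN7 also overlap an annotated gene on the same strand.

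Differences were computed in Python 3.11.15 with a pseudocount of 1; a call needed 2-fold and a minimum of 5. GC content was the median over protein-coding GENCODE 29 transcripts (17429 genes, 98.9%); each library's median deviation in 50 GC bins, averaged over 5 neighbouring bins, was divided out. Calling and GC removal were tested on simulated data with 4-fold changes in genes at 20 or more in hESC. Smaller changes and lower genes, which the rule also calls, were not simulated. The members and lists were chosen with earlier results of these data known. Named from each list were the largest called differences (up to 4 per comparison) and the 2 highest genes, and family relatives at 20 or more. Alternatives were other pseudocounts (0.1 and 5), minimums (none and 20), a fold of 4, and 5 scalings, GC removal included.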

Additional observations from a re-analysis of the deposited data

How the results depend on the processing

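Of 40 differences (10 genes in 4 comparisons), 27 were called; 20 kept their status (called or not) under all 10 alternatives, 10 of them called differences, and 35 kept it under the 5 scalings, GC removal included. None changed sign while called. In MES against hESC 5 genes were higher, but 3 with a minimum of 20, since SNAI1 and SNAI2 lie under it, and 4 were lower, but 0 with a fold of 4. In HEP against MES 5 were lower, but 3 with a pseudocount of 5, 1 with a minimum of 20 and 1 with a fold of 4. In the same comparison 0 were higher, but 1, VIM (log2 difference up to 1.47), with median-of-ratios scaling, upper quartile scaling, a common total, and a common total without mitochondrial, ribosomal protein, globin and histone genes. EPCAM was not called lower there under any of the 5 scalings. In HPC against HEP 6 were lower, but 2 with a fold of 4. For the lists, over the alternatives, junction and polarity genes lower in MES than in hESC (6) ranged from 1 to 8, in HEP than in MES (8) from 1 to 12, in HPC than in HEP (4) from 0 to 9 and in HPC than in hESC (20) from 3 to 24. Epithelial regulators lower in MES than in hESC (9) ranged from 2 to 10, in HEP than in MES (2) from 0 to 9, in HPC than in HEP (2) from 0 to 5 and in HPC than in hESC (13) from 4 to 17. Other transcription factors higher in MES than in hESC (3) ranged from 1 to 7 and lower in HEP than in MES (4) from 1 to 6. Mesenchymal genes higher in MES than in hESC (19) ranged from 13 to 20, higher in HEP than in MES (8) from 4 to 13, lower there (10) from 5 to 11, lower in HPC than in HEP (17) from 8 to 19 and higher in HPC than in hESC (12) from 7 to 15. Depth is unknown, so differences of genes under 5, SNAI1 and SNAI2 outside MES among them, have no stated precision. No paired analysis was possible because each group has 1 library.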
